A study of Homo sapiens with 6 samples.

Results

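A set of 9 genes that build, supply or break down glycogen was followed in MDA-MB-231 cells, a mesenchymal line from a human breast tumour without hormone receptors or HER2, with and without vitamin C. The 9 members, taken by symbol from a fixed list among 60675 genes counted, were GYG1, GYS1, GBE1, PGM1, UGP2, PYGL, PYGB, PPP1R3B and PPP1R3C, and all 9 were tested. There were 3 libraries from control wells and 3 from wells given 100 μM sodium ascorbate for 3 days, with the medium renewed each day before treatment. All groups were of the same purchased line grown in DMEM. Only the expression of RNA was measured here, after depletion of ribosomal RNA, so neither glycogen itself nor enzyme activity was observed.

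Glycogen is the branched store of glucose in animal cells. Glycogenin primes each particle with a short chain, glycogen synthase lengthens the chains from UDP-glucose, and the branching enzyme adds the branches. Phosphorylase releases glucose 1-phosphate from the chain ends, and targeting subunits bring protein phosphatase 1 to the particle, where it favours synthesis over breakdown. Cancer cells in low oxygen can store and spend glycogen, and several of these genes are known to respond to the hypoxia-inducible factors, which prolyl hydroxylases that use vitamin C help to degrade.

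Of the 9 genes, GBE1, the branching enzyme, was lower after vitamin C treatment, none was higher and the other 8 missed the edgeR threshold. To pass, a gene needed an adjusted p under 0.05 in the quasi-likelihood test of edgeR, adjusted by Benjamini-Hochberg over all 15261 genes tested, of which 7.08% passed, 3.48% lower and 3.6% higher. DESeq2 called 3 members lower, GBE1, PGM1 and PYGL, and none higher, against 6.36% of all its genes called lower and 4.35% called higher. At an unadjusted edgeR p under 0.05, 3 members were lower and none higher, against 13.1% and 14.3% of all genes tested. The estimate lay below 0 for 8 members and above 0 for PPP1R3C alone, while over all 15261 genes 7265 lay below 0 and 7996 above. Of the 8, GYS1 (-0.01), PYGB (-0.04) and UGP2 (-0.07) were near 0. The median log2 fold change of the members was -0.19, and that of all genes tested was 0.02. In CPM, the depth-scaled count used throughout with TMM factors, the libraries of the groups did not overlap for 3 members, GBE1, PYGL and UGP2, all lower with vitamin C, while of all genes tested 16.6% were separated in that direction and 15.7% in the other.

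**Figure D1:**
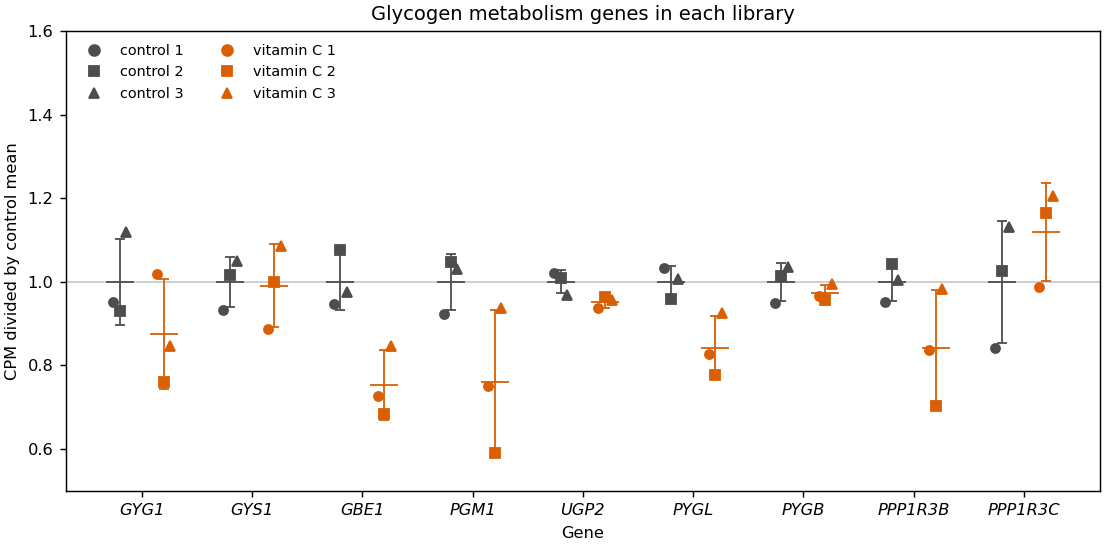
CPM of each of the 9 genes in each library, divided by the mean of the control libraries. Each point is 1 library, each horizontal line a group mean and each bar the SD of 3 libraries. The vitamin C libraries of GBE1, PYGL and UGP2 lie below all of their controls, and in PGM1 and PPP1R3B only vitamin C 3 reaches the controls.

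The libraries held 13434130 to 22373591 reads counted in genes. VIM, the vimentin filament of mesenchyme, was at 1186 to 1316 CPM, and ESR1, the oestrogen receptor, had no count in any library. CD44, a surface marker of these cells, was at 930.2 CPM or more, and FN1, the fibronectin of mesenchyme, was at 259 to 359 CPM without and 471 to 614 CPM with vitamin C (edgeR adjusted p = 0.00909). CDH1, the cadherin of epithelium, was low, at 0.512 to 2.24 CPM without and 1.38 to 6.52 CPM with vitamin C (edgeR adjusted p = 0.113), and PGR, the progesterone receptor, had at most 4 counts. Of the 4 markers of other cells, 3 were near 0. PTPRC of leukocytes, ALB of liver and CKM of muscle had at most 2 counts in a library, and PECAM1 of endothelium had 10 to 43. PECAM1 was at 0.569 to 1.19 CPM without and 1.88 to 2.16 CPM with vitamin C (edgeR adjusted p = 0.0439, DESeq2 adjusted p = 0.0675). The part of FN1, CDH1 and PECAM1 in the results was not tested. The libraries vitamin C 1 and 2 stood apart from the others in having fewer gene counts (13434130 and 14225257, against at least 17664345), more unmapped read pairs (40.7% and 49.5%, against at most 34.4%) and a larger share of mitochondrial mRNA (1.79% and 1.71% of gene counts, against at most 1.18%). Vitamin C 3 lay near the controls in all of these, and its values are therefore given beside each member. In extracts of whole wells, fewer cells with a transcript and less of it per cell cannot be told apart.

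Per length of exon, the levels of the members stepped down from PYGL to PPP1R3C in control cells. Levels of different genes are compared as CPM per kb of the union of a gene's annotated exons, which understates genes whose long isoforms are little used. PYGL, the liver-type phosphorylase, was the highest in control cells at 38.7 ± 1.5 CPM per kb (SD, n = 3). It was followed by GBE1 at 34.2 ± 2.33, UGP2 at 22.2 ± 0.61, PGM1 at 19.1 ± 1.29 and PYGB at 15.9 ± 0.718 CPM per kb. GYS1, the synthase, stood at 6.71 ± 0.401 CPM per kb, below each of these 5. PPP1R3B was at 3.43 ± 0.155, GYG1 at 2.24 ± 0.231 and PPP1R3C at 2.13 ± 0.311 CPM per kb. The control libraries of each gene lay above those of the next in this order, except for GYG1 and PPP1R3C, whose libraries overlapped. With vitamin C, PGM1 at 14.5 ± 3.31 CPM per kb overlapped PYGB at 15.5 ± 0.325 CPM per kb. Among the lowest genes the mean of PPP1R3C, at 2.38 ± 0.248 CPM per kb, was then above that of GYG1, at 1.97 ± 0.295, with overlapping libraries. The lowest vitamin C library of PPP1R3B, at 2.41, lay within those of PPP1R3C.

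**Figure D2:**
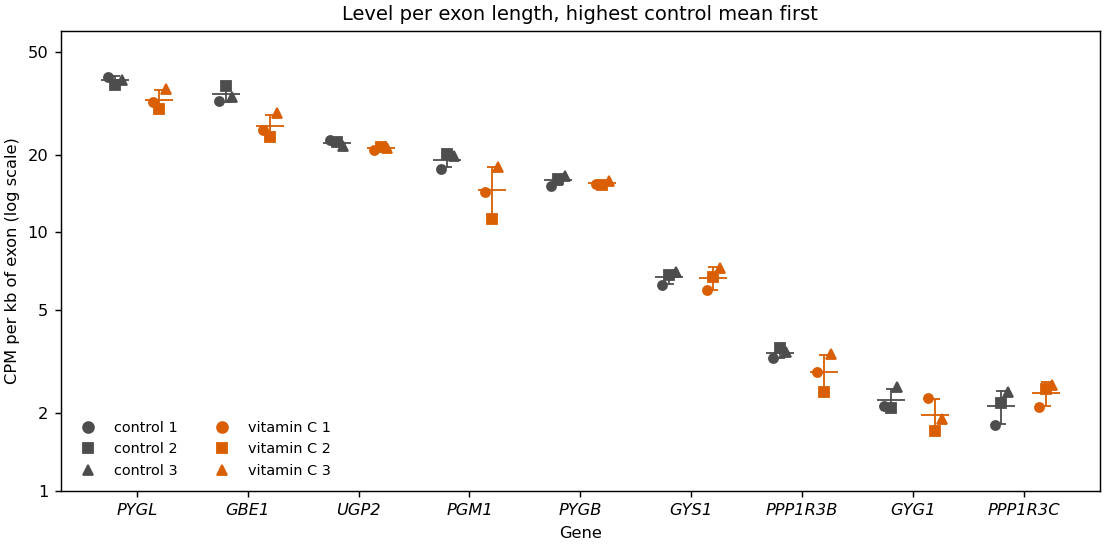
CPM per kb of exon, on a log scale, for each library of the 9 genes, ordered by the control mean. Each point is 1 library, each line a group mean and each bar the SD of 3 libraries. The levels run from 38.7 CPM per kb for PYGL to 2.13 CPM per kb for PPP1R3C in control cells.

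The promoters of 4 members are shown because they span the range of the results. GBE1 passed both tools, PYGL passed DESeq2 alone, GYS1 lay near 0, and PPP1R3C had the only estimate above 0. Sequences are the 250 bases before the RefSeq start on GRCh38.p14, 5′ to 3′ on the strand of the gene, and capitals mark ACGTG or GCGTG on either strand, the core letters of the element that hypoxia-inducible factors bind.
GBE1, chr3:81761646-81761895, minus strand: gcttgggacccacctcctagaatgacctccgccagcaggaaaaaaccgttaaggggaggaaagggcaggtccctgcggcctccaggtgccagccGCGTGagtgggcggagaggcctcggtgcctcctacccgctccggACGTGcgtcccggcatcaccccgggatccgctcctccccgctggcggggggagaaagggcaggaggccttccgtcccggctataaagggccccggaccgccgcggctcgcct
PYGL, chr14:50944484-50944733, minus strand: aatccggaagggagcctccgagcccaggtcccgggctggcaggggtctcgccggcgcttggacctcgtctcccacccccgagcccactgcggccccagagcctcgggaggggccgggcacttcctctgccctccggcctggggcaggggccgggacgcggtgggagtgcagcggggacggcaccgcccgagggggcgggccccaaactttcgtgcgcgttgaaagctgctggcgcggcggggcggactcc
GYS1, chr19:48993310-48993559, minus strand: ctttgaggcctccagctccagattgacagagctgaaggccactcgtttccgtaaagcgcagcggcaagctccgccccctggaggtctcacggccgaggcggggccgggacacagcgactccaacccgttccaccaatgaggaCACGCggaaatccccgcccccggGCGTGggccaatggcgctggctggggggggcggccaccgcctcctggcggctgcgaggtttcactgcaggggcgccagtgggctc
PPP1R3C, chr10:91633072-91633321, minus strand: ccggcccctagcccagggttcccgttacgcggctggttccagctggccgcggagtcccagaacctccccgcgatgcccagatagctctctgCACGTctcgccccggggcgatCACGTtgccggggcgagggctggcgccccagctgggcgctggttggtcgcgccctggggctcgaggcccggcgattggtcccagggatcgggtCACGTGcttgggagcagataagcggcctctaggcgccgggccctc
GBE1 had GCGTG 156 bases and ACGTG 112 bases before the start. PYGL had neither motif. GYS1 had GCGTG 108 and 85 bases before the start, the first on the opposite strand. PPP1R3C had ACGTG 4 times, of which the copies 45 and 44 bases before the start are the palindrome CACGTG read on each strand. In windows of 300 bases, which also hold 50 bases after the start, either motif stood in 8 of the 11 windows of the 8 members that matched a RefSeq entry, and in 48.4% of all 35116 promoter windows. Such a match describes the letters in the window, not a bound site. Of the 7 members with either motif in any window, all but PPP1R3C had estimates below 0, as did 7265 of all 15261 genes tested. That of PPP1R3C was 0.16 (SE 0.16, edgeR adjusted p = 0.54), so its sign was uncertain. PYGL, with neither motif, was also below 0, at -0.25. Whether the motifs bear on the estimates was not tested.

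Of the genes that make glycogen, GBE1 changed, whereas GYS1 and GYG1 did not pass the test. GBE1 (ENSG00000114480, chromosome 3, 81489703 to 81761645, minus strand) encodes the enzyme that moves a stretch of chain to make a branch point. It was at 151, 171 and 155 CPM in control 1, 2 and 3 and at 116, 109 and 134 CPM in vitamin C 1, 2 and 3. Every vitamin C library lay below every control library, with vitamin C 3 the closest to the controls. The group means were 159 ± 10.8 and 120 ± 13.3 CPM (SD, n = 3 each). The log2 fold change was -0.41 (SE 0.09, 95% interval -0.61 to -0.21, edgeR adjusted p = 0.0284, DESeq2 adjusted p = 0.00121). Counts of GBE1 were 1500 or more in each library, so counting error was at most 2.58%, below the spread between wells. GBE1 missed the edgeR threshold once control 1 was left out (adjusted p = 0.0729), and likewise control 2 (0.104), vitamin C 1 (0.0848) and vitamin C 2 (0.061), while the log2 fold change stayed between -0.51 and -0.35.

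GYS1 (ENSG00000104812, chromosome 19, 48968130 to 48993310, minus strand) encodes the glycogen synthase found outside the liver, the enzyme that sets the rate of synthesis. Controls 1 to 3 had 26.6, 28.9 and 29.9 CPM, and vitamin C 1 to 3 had 25.3, 28.5 and 30.9 CPM. The groups overlapped almost completely, and vitamin C held both the lowest and the highest library. The log2 fold change was -0.01 (SE 0.10, 95% interval -0.22 to 0.20, edgeR adjusted p = 0.958), and upper-quartile factors turned its sign, to 0.026. GYS2, the liver synthase, had 3 to 6 counts in each library and was not tested.

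GYG1 (ENSG00000163754, chromosome 3, 148991408 to 149031775, plus strand) encodes glycogenin, the protein that starts the chain by glucosylating itself. It was at 16.1, 15.8 and 18.9 CPM in the control libraries and at 17.3, 12.9 and 14.4 CPM in the vitamin C libraries, with vitamin C 1 among the controls. The log2 fold change was -0.19 (SE 0.13, 95% interval -0.47 to 0.09, edgeR adjusted p = 0.352). It was -0.31 without vitamin C 1 and -0.11 without either control 3 or vitamin C 2. Its isoenzyme GYG2, chosen after its values were seen, was at 6.15 to 7.36 CPM without and 8.11 to 10.4 CPM with vitamin C, and did not pass either (edgeR adjusted p = 0.101).

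Of the enzymes that turn glucose 6-phosphate into UDP-glucose, PGM1 had an estimate about as far below 0 as GBE1 but a wider spread, and UGP2 had an estimate near 0. PGM1 (ENSG00000079739, chromosome 1, 63593411 to 63660245, plus strand) encodes the main phosphoglucomutase, which interconverts glucose 6-phosphate and glucose 1-phosphate and so serves synthesis and breakdown alike. It was at 72.0, 81.6 and 80.4 CPM in the control libraries and at 58.6, 46.1 and 73.1 CPM in the vitamin C libraries. Vitamin C 2 was far below the rest and vitamin C 3 lay above control 1, so the groups overlapped. The log2 fold change was -0.39 (SE 0.13, 95% interval -0.69 to -0.10, edgeR adjusted p = 0.0906, DESeq2 adjusted p = 0.0314). Without vitamin C 3 it passed edgeR, with a log2 fold change of -0.58 (adjusted p = 0.0072), and without vitamin C 2 the log2 fold change was -0.24 (adjusted p = 0.195).

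UGP2 (ENSG00000169764, chromosome 2, 63840952 to 63891562, plus strand) encodes the pyrophosphorylase that makes UDP-glucose from glucose 1-phosphate and UTP. Controls 1 to 3 had 154, 152 and 146 CPM, and vitamin C 1 to 3 had 141, 145 and 144 CPM. The groups did not overlap, yet the nearest libraries were 146 and 145 CPM. The log2 fold change was -0.07 (SE 0.07, 95% interval -0.22 to 0.08, edgeR adjusted p = 0.537, exact two-sided permutation p = 0.1, the smallest that 3 against 3 allow).

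The phosphorylases, which break glycogen down, both missed the edgeR threshold. PYGL had an estimate further below 0 than PYGB, but their 95% intervals overlapped. PYGL (ENSG00000100504, chromosome 14, 50857891 to 50944483, minus strand) encodes the liver-type enzyme and was the more abundant. It was at 182, 169 and 177 CPM in the control libraries and at 146, 137 and 163 CPM in the vitamin C libraries. All vitamin C libraries lay below the controls, with vitamin C 3 again the highest of the group. The log2 fold change was -0.25 (SE 0.08, 95% interval -0.42 to -0.07, edgeR adjusted p = 0.081, DESeq2 adjusted p = 0.0451). Without vitamin C 3 it passed edgeR (log2 fold change -0.32, adjusted p = 0.0237).

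PYGB (ENSG00000100994, chromosome 20, 25248085 to 25298012, plus strand) encodes the brain-type enzyme. Controls 1 to 3 had 67.4, 72.0 and 73.5 CPM, and vitamin C 1 to 3 had 68.6, 67.9 and 70.7 CPM. The vitamin C libraries lay within the range of the controls, and the log2 fold change was -0.04 (SE 0.07, 95% interval -0.20 to 0.12, edgeR adjusted p = 0.76). PYGM, the muscle-type enzyme, had at most 4 counts in a library. Per exon length PYGL made up 69.6% to 72.6% of phosphorylase transcripts in the control libraries and 66.3% to 69.3% in the vitamin C libraries.

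Neither subunit that targets protein phosphatase 1 to glycogen passed the test in either tool, and their estimates had opposite signs. PPP1R3B (ENSG00000173281, chromosome 8, 9136255 to 9151574, minus strand) encodes the subunit best known from liver. It was at 18.7, 20.5 and 19.7 CPM in the control libraries and at 16.5, 13.8 and 19.3 CPM in the vitamin C libraries. Only vitamin C 3 reached the controls, and the log2 fold change was -0.24 (SE 0.12, 95% interval -0.51 to 0.02, edgeR adjusted p = 0.223). It was -0.38 without vitamin C 3 (adjusted p = 0.0534) and -0.13 without vitamin C 2 (adjusted p = 0.521). PPP1R3C (ENSG00000119938, chromosome 10, 91628442 to 91633071, minus strand) encodes the widely expressed subunit known as protein targeting to glycogen. It was at 4.55, 5.55 and 6.12 CPM in the control libraries and at 5.34, 6.30 and 6.52 CPM in the vitamin C libraries. These groups overlapped, and the log2 fold change was 0.16 (SE 0.16, 95% interval -0.19 to 0.52, edgeR adjusted p = 0.54). With 72 to 130 counts in a library, PPP1R3C had a counting error of up to 11.8%. Its estimate was 0.06 without control 1 and 0.10 without vitamin C 3, and 0.26 without control 3.

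In GBE1, PGM1, PYGL, PPP1R3B and also PYGB, whose estimate was near 0, the order of the vitamin C libraries was the same, with vitamin C 2 the lowest and vitamin C 3 the highest. Vitamin C 2 also had the largest share of unmapped pairs, at 49.5%, and vitamin C 3 the smallest of the group, at 24.7%. The part of library quality in these values was not tested. Over the 9 genes vitamin C 3 was the highest of its group in 7, but the share of all genes for which this holds was not computed. Without that library 3 members were called lower, GBE1, PGM1 and PYGL. Over all genes, leaving out that library raised the number called lower from 531 to 958 and the number called higher from 549 to 942.

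Ratios between genes within a library do not depend on the normalization, and 6 pairs, 4 of them between members and 2 of a member with GYG2 or PGM2, were compared, all chosen after the values were seen. The ratio of GBE1 to GYS1 counts was 5.66, 5.91 and 5.19 without vitamin C and 4.57, 3.82 and 4.35 with it. The means were 5.59 ± 0.368 and 4.24 ± 0.388 (SD, n = 3 each) and the groups did not overlap. The ratio of PYGL to PYGB was 2.70, 2.34 and 2.41 without and 2.12, 2.02 and 2.30 with vitamin C, also without overlap but with the nearest libraries at 2.34 and 2.30. GYG1 to GYG2 had the widest separation relative to its spread. That ratio was 2.62, 2.22 and 2.57 in control wells and 1.66, 1.59 and 1.64 in treated wells, a log2 difference of -0.59. Per exon length, GYG2 thus made up 44.4%, 48.5% and 44.8% of glycogenin transcripts without vitamin C and 55.7%, 56.8% and 56.0% with it. In counts, GYG1 stayed above GYG2 in every library. Which gene held the larger share therefore rests on the annotated exon lengths, 7551 bases for GYG1 and 3612 for GYG2, which may include little-used isoforms. The reads of GYG1 may include some of HLTF, a gene that overlaps it on the opposite strand, and the sources used here do not say whether counting used strand.

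PPP1R3B to PPP1R3C was 4.11, 3.70 and 3.23 in control wells and 3.08, 2.20 and 2.96 in treated wells, again without overlap. Each of these 4 separations had an exact two-sided permutation p = 0.1, the smallest possible with 3 against 3, and an adjusted p = 0.15 over the 6 pairs, so none could pass a threshold of 0.05. How often pairs of genes in general separate was not computed. Of single genes tested, 16.6% were separated with vitamin C lower and 15.7% with it higher. The ratios of PGM1 to UGP2 (exact permutation p = 0.2, adjusted p = 0.24) and of PGM1 to PGM2 (exact permutation p = 0.7) overlapped between the groups. PGM1 and PYGB also overlap genes of the opposite strand, ITGB3BP and ABHD12.

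**Figure D3:**
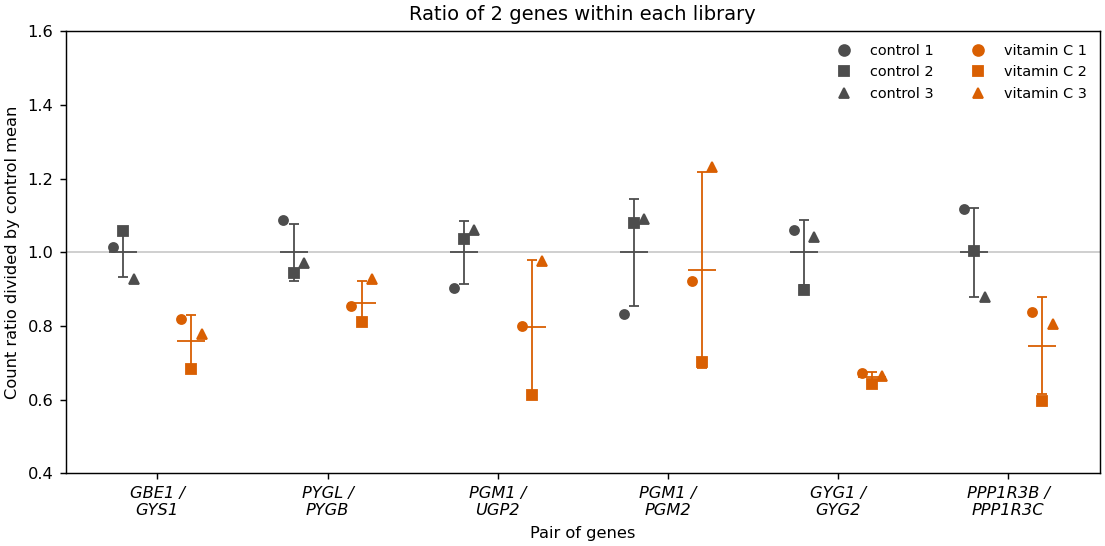
Ratio of the counts of 2 genes within each library, divided by the mean ratio of the control libraries, for 6 pairs. Each point is 1 library, each line a group mean and each bar the SD of 3 libraries. The groups do not overlap for GBE1 to GYS1, PYGL to PYGB, GYG1 to GYG2 and PPP1R3B to PPP1R3C, and overlap for both ratios of PGM1.

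Among 25 other genes of glycogen metabolism, 20 were tested, of which PGM2 was lower, PHKB was higher and the other 18 missed the edgeR threshold. By edgeR, 3.48% of all genes tested were lower and 3.6% were higher. The median log2 fold change of the 20 was 0.04, with 9 estimates below 0 and 11 above. PHKB encodes the beta subunit of phosphorylase kinase, which switches phosphorylase on. It was at 54.8, 61.1 and 59.2 CPM in the control libraries and at 69.1, 77.4 and 73.2 CPM in the vitamin C libraries, and its log2 fold change was 0.33 (SE 0.08, edgeR adjusted p = 0.0358, DESeq2 adjusted p = 0.0188). No vitamin C library of PHKB overlapped a control. PHKB missed the threshold when any library but vitamin C 3 was left out, at an adjusted p of 0.13, 0.0943 and 0.0652 for controls 1, 2 and 3 and of 0.0625 and 0.0828 for vitamin C 1 and 2.

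PGM2, a relative of PGM1 that acts mainly on pentose phosphates, went from 194, 170 and 165 CPM to 142, 147 and 133 CPM, and its log2 fold change was -0.32 (SE 0.08, edgeR adjusted p = 0.0402). It missed the threshold with upper-quartile factors (adjusted p = 0.0526) and whenever a library other than control 3 was left out. The adjusted p was then 0.141 and 0.0999 for controls 1 and 2 and 0.101, 0.0512 and 0.0529 for vitamin C 1, 2 and 3. DESeq2 called PGM2 and PPP1CC lower and PHKB higher, against 6.36% of all its genes called lower and 4.35% called higher. PPP1CC, a catalytic subunit of protein phosphatase 1 chosen after its values were seen, had an edgeR adjusted p = 0.0874. The 5 genes not tested, among them GYS2, PYGM and the targeting subunit PPP1R3A, had at most 22 counts in a library.

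Of 10 genes that spend UDP-glucose or feed glucose 1-phosphate from galactose, 1 was higher and none lower by edgeR, and the other 9 missed the threshold, with a median log2 fold change of -0.01. Of all genes tested, edgeR called 3.48% lower and 3.6% higher. At an unadjusted edgeR p under 0.05, 1 gene of the list was lower and 1 higher, against 13.1% and 14.3% of all genes tested. DESeq2 called 1 gene lower and 0 higher, against 6.36% and 4.35% of all its genes. The higher gene was GALM, which interconverts the forms of galactose that enter this route, at 9.39 to 11.8 CPM in the control and 13.9 to 15.5 CPM in the vitamin C libraries (log2 fold change 0.45, edgeR adjusted p = 0.0472, DESeq2 adjusted p = 0.0505). GALM missed the threshold whichever library was left out, at an adjusted p between 0.061 and 0.155. UGGT1, which uses UDP-glucose to mark misfolded glycoproteins and had the highest CPM of the list, not scaled to length, was at 373 to 391 CPM in the control and 372 to 389 CPM in the vitamin C libraries. The gene DESeq2 called lower was UGCG, the ceramide glucosyltransferase, named after its values were seen (edgeR adjusted p = 0.0713).

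Around glucose 6-phosphate, where glycogen synthesis leaves glycolysis, changes went both ways. Of 12 genes of glucose uptake and glucose 6-phosphate 3 were lower, 3 were higher and 6 did not pass edgeR, with a median log2 fold change of -0.03. Of all genes tested, 3.48% were lower and 3.6% higher by edgeR. The genes called by edgeR all passed DESeq2 too. DESeq2 called 4 genes of the list lower and 3 higher, against 6.36% and 4.35% of all its genes. Among the lower genes were HK2, a hexokinase, with a log2 fold change of -0.96, and SLC2A1, the main glucose transporter, with -0.42. GPI, an isomerase of glucose 6-phosphate, was lower too. Among the higher ones were HKDC1, another hexokinase, which went from 39.9, 41.6 and 46.4 CPM to 57.3, 64.8 and 61.8 CPM (log2 fold change 0.52, SE 0.09, edgeR adjusted p = 0.0102), and H6PD, an enzyme of sugar phosphate oxidation in the endoplasmic reticulum (0.47, SE 0.12, adjusted p = 0.0367). GPI, named after its values were seen, missed the threshold with upper-quartile factors (adjusted p = 0.0596) and when control 1, 2 or 3 (0.13, 0.1 and 0.0906) or vitamin C 2 (0.099) was left out. HK2 is among the genes the study picked on these libraries, so its direction here is not independent evidence. The study also reported HK2 as lower by qRT-PCR. HKDC1 fell just short of the threshold without control 1 (adjusted p = 0.0501) or control 2 (0.058). HK2 did so without control 1 (0.0508) and SLC2A1 without control 2 (0.0572). H6PD missed the threshold in every case but the loss of vitamin C 3. Its edgeR adjusted p was 0.122, 0.0755 and 0.0511 without controls 1, 2 and 3, and 0.0613 and 0.0505 without vitamin C 1 and 2.

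**Figure D4:**
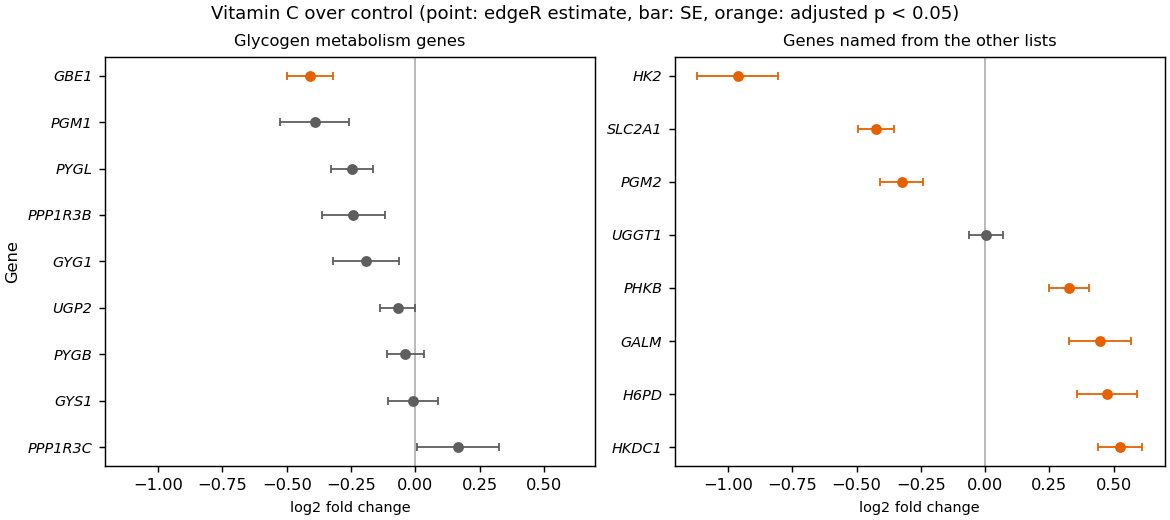
Difference between vitamin C and control as log2 fold change, for the 9 members (left) and for the 8 genes that the naming rule took from the 3 other lists (right), sorted within each panel. Points give the edgeR estimate from 3 libraries a group with its SE, in orange where the edgeR adjusted p was under 0.05. GBE1 is the only orange point on the left, at -0.41, and PPP1R3C the only one there above 0, while on the right UGGT1 alone is not orange.

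The genes whose levels followed GBE1 most closely over the 6 libraries were SMARCC1, a subunit of a chromatin remodelling complex, DTD1, an editing enzyme of tRNA charging, and FAM216A. Likeness was the root mean square difference of mean-centred log2 CPM, which was 0.03 for SMARCC1, 0.05 for DTD1 and 0.06 for FAM216A, among 10141 genes that had a symbol and averaged 100 counts or more. This likeness includes the difference between the groups, so log2 fold changes near that of GBE1 follow from the choice. They were -0.39, -0.38 and -0.40.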

How the data were processed

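RNA-seq of 3 control and 3 vitamin C libraries was analysed, grouped by the sample labels. The submitters' processing notes name CASAVA 1.4, Trim Galore for trimming, STAR for alignment and hg38. What the authors deposited are raw read counts per Ensembl gene, 1 file per library, without normalization. The version of STAR and its strand option were not given in the sources used here. In each file 4 summary lines (reads unmapped, mapped to several places or in no single gene), holding 50.6% to 69.7% of read pairs, entered neither the library sizes nor the tests. A deposited table of all samples was not used.

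Symbols, positions and exon lengths came from GENCODE 44 on GRCh38, which held 93.2% of the 60675 identifiers, and promoters from RefSeq on GRCh38.p14. The main test was edgeR 4.0.16 in R 4.3.3 (TMM factors of 0.972 to 1.02, filterByExpr with a minimum count of 10, glmQLFit and glmQLFTest, Benjamini-Hochberg adjustment over 15261 genes). DESeq2 1.42.0 with a threshold of 0.05 gave an adjusted p for 13472 genes, and limma 3.58.1 (voom) was an alternative. The biological coefficient of variation was 9.40%. The tests were tested on simulated data. The changes put into those data were larger than the changes estimated for the members. No pair of replicate libraries was a repeat within sampling noise (chi-square over degrees of freedom, 4.54 to 21.6). Nothing in the labels says that the wells of a group came from separate experiments, so a p-value reflects only how much these wells varied, possibly for technical reasons.

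The members and the 3 other lists were chosen with earlier results of these data known. The rule for named genes takes every member and, in each other list, up to 4 called genes with the smallest edgeR p, filled to 2 with the most abundant. It also takes the 3 genes most like each called member. Alternatives were RLE and upper-quartile factors, no filter, DESeq2, limma-voom, a block for the replicate number and each library left out in turn. Results of some genes in these lists are not reported here. The 6 ratios were added after the data were seen.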

Additional observations from a re-analysis of the deposited data

How the results depend on the processing

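The number of members called lower was 1 with TMM factors, RLE factors, upper-quartile factors, limma-voom and the replicate block. It was 3 without the filter on low counts and 3 with DESeq2, in both cases GBE1, PGM1 and PYGL, and 0 to 3 with single libraries left out. Without the filter PGM1 had a log2 fold change of -0.41 (adjusted p = 0.000423) and PYGL of -0.27 (adjusted p = 0.0335). The cause was not tested. No member was called higher under any of these settings. GYS1, near 0, turned to 0.026 with upper-quartile factors and lay between -0.086 and 0.060 with libraries left out.

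Of the other glycogen genes, 0 were called lower with upper-quartile factors, 3 without the filter, 2 with DESeq2 and 0 to 4 with libraries left out. The number called higher was 0 to 1 with libraries left out. Of the UDP-sugar and galactose genes, 1 was lower without the filter and with DESeq2, 0 were higher with DESeq2, and with libraries left out 0 to 1 were lower and 0 higher. Of the glucose 6-phosphate genes, 1 to 4 were lower and 0 to 3 higher with libraries left out. UGGT1, near 0, turned to -0.0016 with RLE factors, -0.020 without the filter and -0.013 with DESeq2, and lay between -0.015 and 0.020 with libraries left out. The log2 difference of the PGM1 to PGM2 ratio ranged from -0.30 to 0.10 with libraries left out, and the other 5 ratios kept their sign. All genes called numbered 549 higher and 531 lower with TMM factors and 687 higher and 377 lower with upper-quartile factors, 1079 higher and 1166 lower without the filter, 586 higher and 857 lower with DESeq2, and 69 to 942 higher and 59 to 958 lower with libraries left out.

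Libraries with the same replicate number did not deviate together (correlations of -0.016, -0.056 and -0.045 across genes). The labels do not say whether wells were paired, and this check could not exclude a small effect shared by pairs. With the replicate block GBE1 still passed (adjusted p = 0.0395), while 0 of the other glycogen genes were called lower and 0 higher, 0 of the UDP-sugar and galactose genes were higher, and 338 of all genes were lower. Of the glucose 6-phosphate genes 2 were lower and 2 higher with the block, and GPI missed the threshold (adjusted p = 0.0526).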
